A study of Homo sapiens with 6 samples.

Results

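The S100 calcium-binding protein genes described here were 9 rows of a gene expression matrix with 60671 annotated genes, taken by symbol: S100A2, S100A3, S100A4, S100A6, S100A10, S100A11, S100A13, S100A14 and S100A16. Expression was measured by RNA-seq in tumors grown from MDA-MB-231, a mesenchymal line derived from a human breast cancer that lacks hormone receptors, and the question was how the tumor core (TC, 3 samples) differed from the tumor margin (TM, 3 samples). All 6 samples shared the same background: wild-type (WT) MDA-MB-231 cells injected orthotopically into the mammary fat pad of female NSG mice of 6 to 8 weeks, a strain without functional T, B or NK cells that keeps its own stroma and myeloid cells. No sample carried a drug or a genetic change, every sample came from 1 cell line, and the labels do not tie a core to the margin of the same tumor, so p-values measure only the spread between these samples. Values are TPM, a transcript abundance scaled to the same total in each sample and corrected for transcript length, which keeps no read numbers, so the depth behind each value is unknown.

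S100 proteins are small calcium sensors with a pair of EF-hands, the helix-loop-helix motif that holds calcium. They work mostly as dimers: calcium opens a surface that binds a partner, such as an annexin or a myosin heavy chain, and several members are also released from cells and act on the receptor RAGE. Most of their genes lie in a cluster on chromosome 1q21 inside the epidermal differentiation region, and several are known from carcinomas, among them S100A4, long studied in metastasis.

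All 9 genes lie on the minus strand of chromosome 1 (GRCh38, GENCODE release 29). S100A10 (chr1:151982915-151994390) and S100A11 (chr1:152032506-152047907) stand apart from the rest. The other 7 members fall within 96.8 kb, in the order S100A6 (chr1:153534599-153536244), S100A4 (chr1:153543613-153550136), S100A3 (chr1:153547329-153549372), S100A2 (chr1:153561108-153567890), S100A16 (chr1:153606886-153613145), S100A14 (chr1:153614255-153616986) and S100A13 (chr1:153618787-153631360). The whole of S100A3, 2044 bases, sits inside the span of S100A4 on the same strand, although their spliced transcripts shared no stretch of 50 bases. S100A13 overlaps S100A1, which runs on the opposite strand, by 3435 bases, and 18.8% of the 50-base windows of its transcripts also occur in AL162258.1 on the same strand. The methods name an orientation mode for the alignment with HISAT2, but whether the library kept the strand and whether counting used it is not given in the sources used here, so reads of S100A13, S100A1 and AL162258.1 may have been divided differently from their true origin.

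The stretches below, from the RefSeq promoter table (GRCh38.p14, all minus strand, read 5′ to 3′), are shown as examples of the motifs found near the starts of members described below, and no relation between motifs and the TC and TM values was tested. All 9 members were matched in that table. Searched on both strands of the 250 bases before each listed start were the TATA box (TATAAA), the GC box (GGGCGG), the AP-1 site (TGANTCA), the core of the hypoxia response element (ACGTG) and the CCAAT box (CCAAT), and capitals mark the match.
S100A4, TATA box, chr1:153545820-153545849: gcctggctggggTATAAAtaggtcagacct
S100A6, 3 GC boxes with the last pair overlapping, chr1:153536057-153536086: ggcgcGGGCGGgacttGGGCGGGCGGggtg
S100A3, AP-1, chr1:153549466-153549495: gggaatcaggagTGAGTCActgggctagca
S100A2, AP-1, chr1:153565879-153565908: aggagtgggctgTGACTCAcaggcatgtca
S100A11, GC box, chr1:152037055-152037084: ggaggcggggagGGGCGGggcaggcgcgga
S100A16, hypoxia response element core on the opposite strand, chr1:153609457-153609486: tggtgatgacagaCACGTctgtgggagtca
The S100A4 stretch with the TATA box ran at positions -43 to -14 from the start, and the box was present in 2 members (S100A4 and S100A13), against 10.7% of 35116 promoter windows in the table. The AP-1 letters occurred in 2 members, S100A2 and S100A3, against 6.57% of windows. GGGCGG was found in 6 members against 42.6% of windows, CCAAT in 3 against 32.0% and ACGTG in 1, S100A16, against 18.5%. Members had up to several listed starts, 13 windows in all, so a member had more chances to hold a motif than 1 window. These are matches of letters and not measured binding.

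S100 transcripts were abundant in every sample. The 9 members together held 0.702 to 1.08% of all TPM, and S100A6, or calcyclin, which binds annexins and the calcyclin-binding protein CACYBP, held most of that sum. On the TPM scale, which is per transcript length, the order was S100A6, S100A10, S100A11, S100A16, then S100A4 and S100A13, then S100A3 and S100A2, and S100A14 last. S100A6 came first, and S100A16 came directly after S100A10 and S100A11, in all 6 samples. S100A10 and S100A11 changed places in TM1, S100A4 was above S100A13 in TC1, TC2 and TM1 and below it in the other samples, and S100A2 was above S100A3 in TC2 and TM1, so these neighbours did not keep a fixed order. Among all annotated genes S100A6 ranked 12 to 16 in TC and 22 to 30 in TM, while S100A4 ranked 284 to 501 in TC and 616 to 777 in TM.

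**Figure D1:**
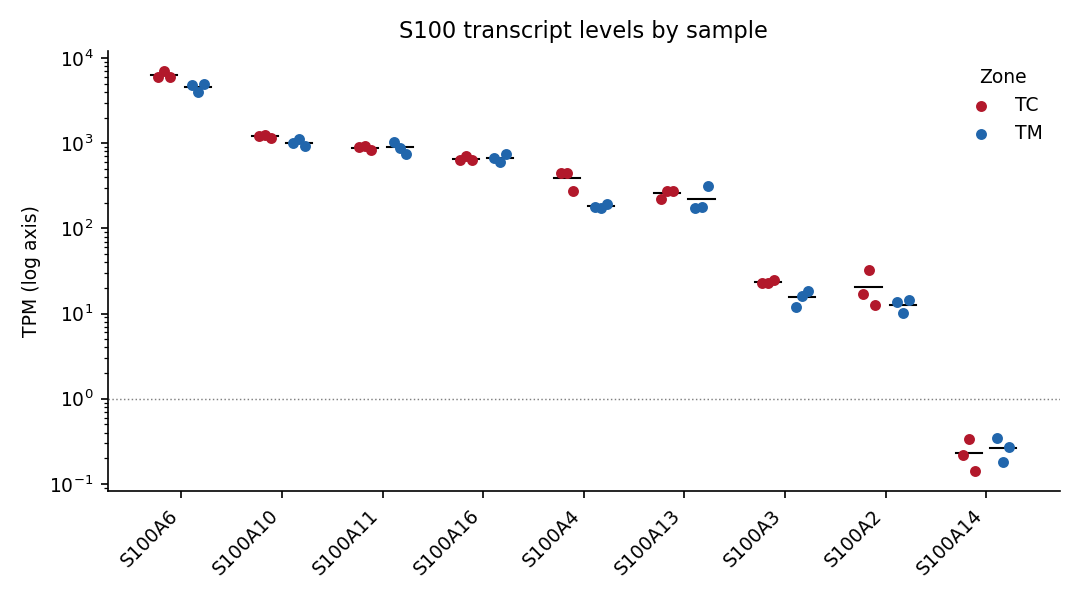
TPM on a log10 axis (vertical) of the 9 S100 members (horizontal) in the 3 TC and 3 TM samples, with 1 point per sample and a bar at each group's mean. The members span more than 4 orders of magnitude, from S100A14 at 0.140 to 0.350 TPM up to S100A6 at 4018 to 7090.3 TPM, and the TC and TM points of S100A3, S100A4, S100A6 and S100A10 do not overlap.

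Of the 9 members, 8 were tested and none passed an adjusted p of 0.05 (limma on log2(TPM + 1), Benjamini-Hochberg over all 13861 tested genes, of which 19, or 0.137%, passed). S100A3, S100A4 and S100A6 had an unadjusted p under 0.05 and were higher in TC, a call that 1.93% of tested genes had, and no member was lower in TC by that measure, against 14.2% of tested genes. The groups did not overlap in 4 members, all higher in TC (S100A3, S100A4, S100A6 and S100A10; 3.28% of tested genes), and in none with TC below TM (18.9% of tested genes). The median difference (TC minus TM, log2 scale) was 0.36 over the 8 tested members and -0.14 over all tested genes. The tumors hold human tumor cells and cells of the mouse host, and reads were set against the human genome. Fewer cells of a type and less RNA per cell cannot be told apart in these values. The part of mouse reads in them was not tested.

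S100A4 (ENSG00000196154), which binds non-muscle myosin IIA and is tied to cell motility, showed the widest gap. Its level was 450.3, 443 and 273 TPM in TC1, TC2 and TC3 and 179, 173 and 191 TPM in TM1, TM2 and TM3. Every TC sample was above every TM sample, and TC3 was well below the other two TC samples. The means were 389 ± 100.2 TPM in TC and 181 ± 9.27 TPM in TM (SD, n = 3 each). The difference on the log2(TPM + 1) scale was 1.06 (SE 0.20, 95% interval 0.61 to 1.51), or 2.09-fold, with a limma unadjusted p of 5.61e-04 and an adjusted p of 0.0813. That difference stood at percentile 99.3 of all tested genes, and it missed the threshold.

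S100A6 (ENSG00000197956) lies next to S100A4 with only S100A5 between. It measured 6061, 7090.3 and 5928 TPM in the TC samples and 4823, 4018 and 4920.4 TPM in the TM samples. The lowest core was above the highest margin, by about as much as the margins differed among themselves. Means were 6359.8 ± 636 TPM in TC and 4587 ± 496 TPM in TM (SD, n = 3 each), a log2 difference of 0.47 (SE 0.15, 95% interval 0.13 to 0.82) with a limma adjusted p of 0.181.

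S100A3 (ENSG00000188015), a zinc- and calcium-binding member best known from the hair cuticle, was a weakly expressed gene here. It reached 22.9, 23.1 and 25.1 TPM in TC and 11.9, 16.2 and 18.6 TPM in TM. The cores lay close together and above every margin. The means were 23.7 ± 1.18 and 15.6 ± 3.42 TPM (SD, n = 3 each), and the log2 difference was 0.60 (SE 0.19, 95% interval 0.15 to 1.04) with a limma adjusted p of 0.185.

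S100A2 (ENSG00000196754), a largely nuclear member that is studied as a p53-linked gene of epithelia, varied most among the cores. Its values were 17.0, 32.1 and 12.6 TPM in TC and 13.8, 10.1 and 14.4 TPM in TM. The groups overlapped, and TC2 alone was far above the margins. The log2 difference was 0.56 (SE 0.32, 95% interval -0.18 to 1.29; limma adjusted p = 0.460), and without TC2 it was 0.20.

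S100A10 (ENSG00000197747), or p11, forms a complex with annexin A2 that binds plasminogen at the cell surface. It stood at 1232, 1263 and 1139 TPM in TC and 997, 1136 and 919 TPM in TM. The groups did not overlap, but TC3 and TM2 were nearly level. Means were 1211 ± 64.6 and 1017 ± 109.8 TPM (SD, n = 3 each), and the log2 difference was 0.26 (SE 0.13, 95% interval -0.036 to 0.55; limma adjusted p = 0.384).

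S100A11 (ENSG00000163191), a partner of annexin A1 that takes part in membrane repair, was nearly level between the groups. It measured 907, 927 and 831 TPM in TC and 1032, 889 and 754 TPM in TM. The highest and the lowest value were both margins. The log2 difference was 0.0055 (SE 0.14), with a 95% interval of -0.32 to 0.33 (limma adjusted p = 0.991), so a change of either sign within that interval could not be told from none.

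S100A16 (ENSG00000188643), a widely expressed member known from adipocytes and carcinomas, was likewise close in both groups. The cores had 638, 706 and 640.5 TPM and the margins 669, 602 and 743 TPM. Both extremes were again margins. The log2 difference was -0.017 (SE 0.12, 95% interval -0.30 to 0.27; limma adjusted p = 0.970).

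S100A13 (ENSG00000189171), which carries FGF1 out of cells by the non-classical route, depended on 1 margin sample. Its levels were 224, 276 and 274 TPM in TC and 175, 179.8 and 317 TPM in TM. TM3 was the highest of all samples, whereas TM1 and TM2 were below every core. The log2 difference was 0.25 (SE 0.23, 95% interval -0.28 to 0.78; limma adjusted p = 0.657), and without TM3 it was 0.53.

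S100A14 (ENSG00000189334), an epithelial member, was close to absent. It was 0.220, 0.340 and 0.140 TPM in TC and 0.350, 0.180 and 0.270 TPM in TM, below the limit of 1 TPM in at least 3 samples, and was not tested. The groups overlapped fully, although S100A14 lies between S100A16 and S100A13, at gaps of 1109 and 1800 bases, and both of these stood at 175 TPM or more in every sample.

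**Figure D2:**
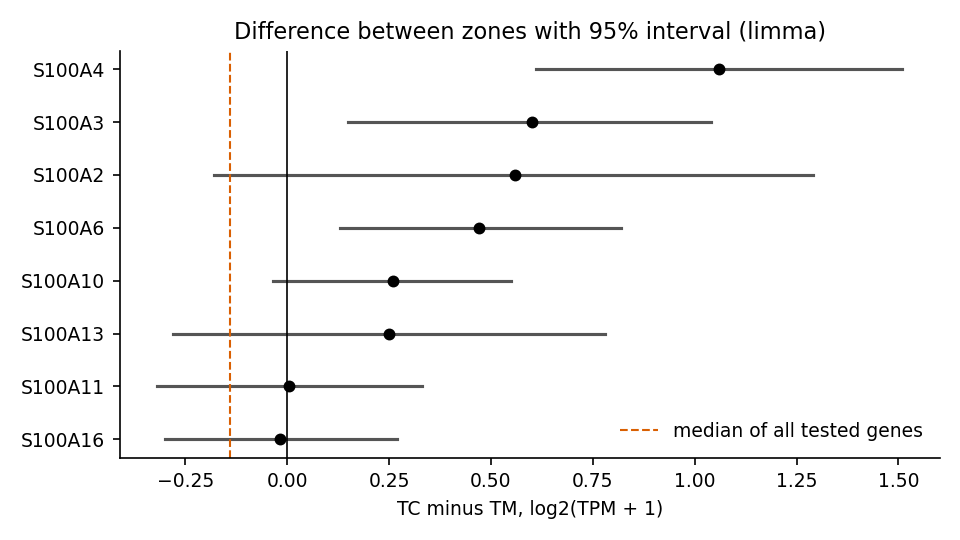
TC minus TM difference on the log2(TPM + 1) scale (horizontal) for the 8 tested members (vertical), with the 95% interval from limma as a bar and the median of all tested genes as a dashed line at -0.14. S100A4 lies farthest to the right at 1.06, S100A3 and S100A6 also have intervals above 0, and S100A11 and S100A16 lie at 0.0055 and -0.017.

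More genes were lower than higher in TC, and the size of a difference depends on the scale. Taken relative to the median of all tested genes, the difference was 1.20 for S100A4, 0.73 for S100A3, 0.69 for S100A2, 0.61 for S100A6, 0.39 for S100A10 and for S100A13, 0.14 for S100A11 and 0.12 for S100A16. The sign for S100A16 thus turned with the scale, and that for S100A11 also turned, to -0.046, after quantile normalization. Ribosomal protein genes took 24.8 to 27.2% of TPM in TC and 20.1 to 24.2% in TM, and mitochondrially encoded genes 6.09 to 8.84% and 9.24 to 11.1%. The part of these shares in the members' values was not tested beyond rescaling without them.

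Along the chromosome, the 4 expressed members at the S100A6 end of the group (S100A6, S100A4, S100A3 and S100A2, within 33.3 kb) had differences of 0.47 to 1.06. S100A16 and S100A13, beyond a gap of 38995 bases, had -0.017 and 0.25. S100A5, a calcium-, zinc- and copper-binding member that was not among the 9 genes, lies between S100A6 and S100A4 and was 3.34, 3.92 and 3.56 TPM in TC and 3.64, 2.61 and 0.970 TPM in TM, with overlapping groups and a difference of 0.52 (SE 0.33, limma adjusted p = 0.510). The contrast between the ends of the group is a description of a few genes that share their samples, and it was not tested.

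**Figure D3:**
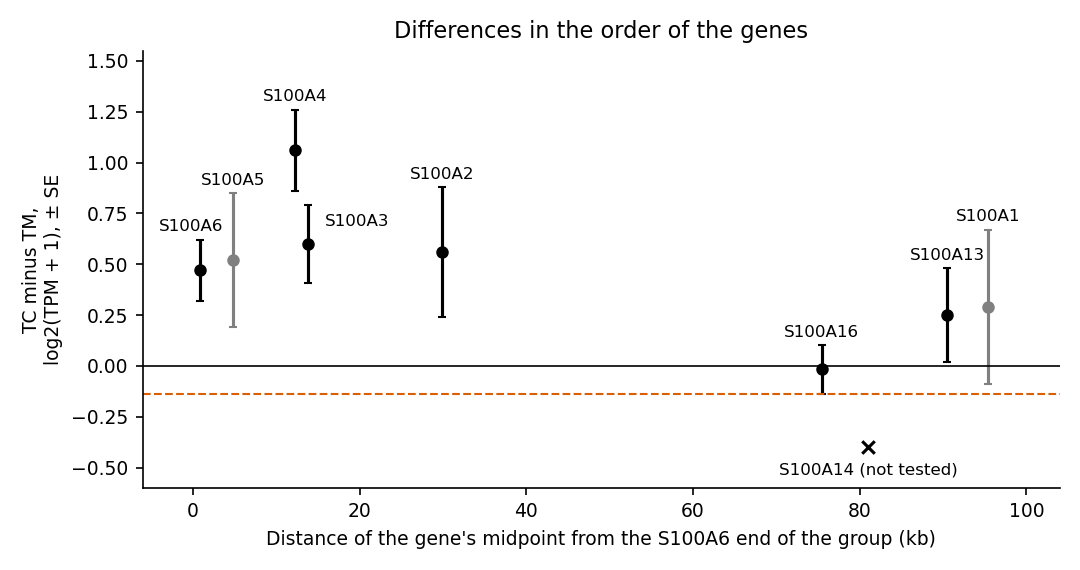
TC minus TM difference with its SE (vertical, log2(TPM + 1) scale) against the distance of each gene's midpoint from the S100A6 end of the group (horizontal, kb), with members in black, S100A5 and S100A1 in grey, and the median of all tested genes dashed. S100A6, S100A4, S100A3 and S100A2 lie at 0.47 to 1.06, S100A16 at -0.017 and S100A13 at 0.25; the cross marks only the place of S100A14, which has no value.

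Ratios of members within a sample are not altered by a single scaling factor per sample, though quantile normalization can alter them. They restate the members' differences against each other, pairs share genes, and none was tested. S100A4 over S100A16 stood at 0.705, 0.628 and 0.427 in the cores and at 0.267, 0.288 and 0.258 in the margins (log2 difference 1.08). Each core had more S100A4 per S100A16 than any margin, and TC3 was again nearest to the margins. S100A4 over S100A6 reached 0.0743, 0.0625 and 0.0461 in the cores but 0.0371, 0.0431 and 0.0389 in the margins (log2 difference 0.59), so S100A4 differed by more than S100A6 in every pairing of a core with a margin. S100A6 over S100A16 came to 9.49, 10.0 and 9.26 in the cores, and the margins had 7.21, 6.67 and 6.63. S100A4 over S100A13, over S100A2 and over S100A3 overlapped between groups. Of the 28 pairs of tested members, 9 did not overlap between groups.

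**Figure D4:**
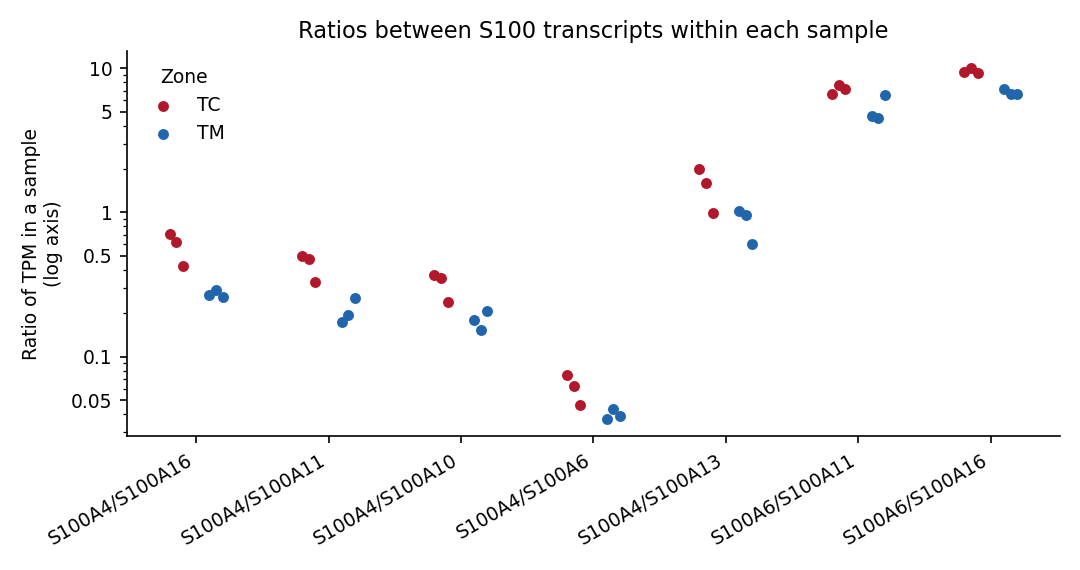
Ratio of TPM of one S100 member to another within each sample (vertical, log10 axis) for chosen pairs (horizontal), with 1 point per TC or TM sample. S100A4 over S100A16 lies at 0.427 to 0.705 in TC and 0.258 to 0.288 in TM, and the TC and TM points of S100A4 over S100A6 are nearer to each other, at 0.0461 and above against 0.0431 and below. Of all 28 pairs of tested members 9 did not overlap between groups, and most pairs shown are among these.

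The summed level of the 9 members was 9553, 10760.1 and 9124 TPM in TC and 7899.5, 7024 and 7877 TPM in TM. Every core was above every margin, with means of 9812 ± 849 and 7600.3 ± 499 TPM (SD, n = 3 each) and a ratio of 1.29. Without S100A6 the means were 3452 ± 239.7 and 3013 ± 60.0 TPM and the ratio was 1.15. S100A6 made up 64.8 ± 1.24% of the sum in TC and 60.2 ± 2.73% in TM.

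The remaining family of 12 S100 genes was nearly silent, at a sum of 2.25 to 6.66 TPM. S100A7A, S100A7L2, S100A8, S100A9, S100A12, S100B and S100G were listed at 0 in all 6 samples. S100A8 and S100A9 form calprotectin of neutrophils and monocytes, and S100B is the glial member. Reads were set against the human genome, so a 0 here does not speak to mouse cells of the host. Only S100A5 and S100A1 reached 1 TPM often enough to be tested, and neither had an unadjusted p under 0.05. S100A1, a member of striated muscle, was 1.43, 0.180 and 2.30 TPM in TC and 0.670, 0.550 and 1.00 TPM in TM, with overlapping groups and a difference of 0.29 (SE 0.38, limma adjusted p = 0.779).

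The partner genes had values on both sides. Of 30 genes for binding partners, the receptor and the plasmin system, 29 were tested, 9 with a higher and 20 with a lower mean log2(TPM + 1) in TC (9283 of all 13861 tested genes were lower), and 0 passed an adjusted p of 0.05. An unadjusted p under 0.05 was reached by 2, both lower in TC, a call that 14.2% of all tested genes had. The median difference over the 29 genes was -0.10, against -0.14 over all tested genes. Annexin A2, the partner of S100A10, was 3628, 2895 and 3379 TPM in TC and 3260.3, 3014 and 2621 TPM in TM, with a difference of 0.15 (SE 0.15, limma adjusted p = 0.676). Its groups overlapped. ANXA1, the partner of S100A11, differed by 0.054 (limma adjusted p = 0.916) and the scaffold AHNAK, which binds S100A10 with annexin A2, by -0.17 (limma adjusted p = 0.750), both with overlapping groups.

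MYH9, the myosin IIA heavy chain to which S100A4 binds, was 413, 398 and 295 TPM in TC and 424, 473 and 414 TPM in TM. All cores were below all margins by a narrow distance, as in 18.9% of tested genes, with a difference of -0.26 (SE 0.15, limma adjusted p = 0.475). CACYBP, named for its binding to S100A6, differed by -0.32 (SE 0.25, limma adjusted p = 0.592). AGER, which encodes the receptor RAGE, was a low gene at 2.24, 1.72 and 2.10 TPM in TC and 3.66, 3.34 and 4.72 TPM in TM. Its groups did not overlap, again with TC below TM as in 18.9% of tested genes. The AGER difference of -0.69 (SE 0.23, limma unadjusted p 0.0163) had an adjusted p of 0.194. The phosphatase gene PPP5C, whose protein several S100 members bind, differed by -0.31 (limma adjusted p = 0.303). The tropomyosin gene TPM1 differed by -0.70 (SE 0.34, limma adjusted p = 0.373), with levels of 302 and 437 TPM in TM1 and TM2 against 146 to 176 TPM in the other 4 samples. FGF1, the cargo of S100A13, lay at 1.04, 1.31 and 1.06 TPM in TC and 0.210, 0.890 and 0.680 TPM in TM. The FGF1 groups did not overlap, as in 3.28% of tested genes with TC above TM, and the difference was 0.45 (limma adjusted p = 0.467).

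Genes for other proteins with EF-hands were divided in direction. Of 38 genes, 36 were tested and 0 passed an adjusted p of 0.05. In TC, 17 had a higher and 19 a lower mean log2(TPM + 1), where 9283 of all 13861 tested genes were lower. The median difference was -0.013, against -0.14 over all tested genes. SDF4, the Golgi calcium-binding protein Cab45, was the only gene of the list with an unadjusted p under 0.05, at -0.27 (limma adjusted p = 0.307). Of all tested genes, 14.2% were lower in TC by that measure and 1.93% higher. CAPN1, the catalytic subunit of calpain 1, differed by -0.35 (limma adjusted p = 0.376). CALM2, 1 of the genes for calmodulin, measured 841, 776 and 947 TPM in TC and 759.7, 703 and 700.4 TPM in TM. Its groups did not overlap, as in 3.28% of tested genes with TC above TM, and the difference was 0.24 (limma adjusted p = 0.397).

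The tissue label was checked against marker genes. Keratins 7, 8, 18 and 19, VIM, CD44 and EGFR were expressed in all samples. ESR1 and PGR stayed at or below 0.220 TPM, CDH1 at or below 0.360 TPM and EPCAM at 3.66 to 6.02 TPM. ERBB2 was 22.3, 23.9 and 24.1 TPM in TC and 40.7, 30.8 and 36.4 TPM in TM, with TC below TM as in 18.9% of tested genes. The list of 12 breast line markers summed to 5754 to 7593 TPM. No other line was compared, so these values do not identify the line. Markers of other cell types moved with the groups in some samples. The 12 skeletal muscle markers summed to 9.85 to 13.1 TPM in TC, but to 257, 639 and 5.77 TPM in TM1, TM2 and TM3. The 11 fibroblast markers summed to 66.3, 124 and 226 TPM in TC and 479, 1008 and 91.5 TPM in TM. Most of this sum came from the collagen genes COL1A1, COL1A2 and COL3A1. COL1A1 alone was 44.7, 83.8 and 161 TPM in TC and 335, 698 and 62.9 TPM in TM. LUM, PDGFRA, THY1 and DPT stayed at or below 0.660 TPM, so the sum describes collagen more than the whole list. FAP and PDGFRB were lower in every core than in any margin, TM3 included, as in 18.9% of tested genes. Their differences were -0.83 (limma adjusted p = 0.210) and -0.52 (limma adjusted p = 0.303). The 3 collagen genes had overlapping groups. In the muscle and fibroblast sums TM1 and TM2 thus stood apart from TM3. TM3 was the margin nearest to the cores in S100A4, S100A3 and S100A6, but the farthest from them in S100A10. Without TM1 and TM2 the S100A4 difference was 0.98, the S100A6 difference 0.37 and the S100A3 difference 0.33. It was 0.38 for S100A2, 0.40 for S100A10, 0.24 for S100A11, -0.31 for S100A13 and -0.17 for S100A16. The members' median difference was then 0.35, against 0.36 with all samples. These values set 3 cores against 1 margin whose spread was taken from the cores, a setting chosen after seeing the data. Macrophage markers summed to 88.2 to 101 TPM with no gap between groups, but CD68 alone gave 84.8 to 94.2 TPM of this. The sum thus describes CD68 more than the whole list. CSF1R was lower in every core than in any margin, as in 18.9% of tested genes (difference -0.80, limma adjusted p = 0.314). The other tested macrophage markers, CD68 at -0.0016 and AIF1 at -0.30, had overlapping groups. Neutrophil markers summed to at most 0.430 TPM with MPO, ELANE and FCGR3B at 0, and endothelial markers to 3.77 to 7.02 TPM. Keratinocyte markers summed to 15.3 to 54.8 TPM with KRT1 and LORICRIN at 0. Schwann cell markers summed to 4.23 to 8.57 TPM, and adipocyte markers to 0.290 to 0.860 TPM with ADIPOQ and LEP at 0. All of these are values of human genes, so a marker at 0 does not show that mouse cells of that type were absent. The part of these cell types, and of mouse reads, in the S100 values was not tested.

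**Figure D5:**
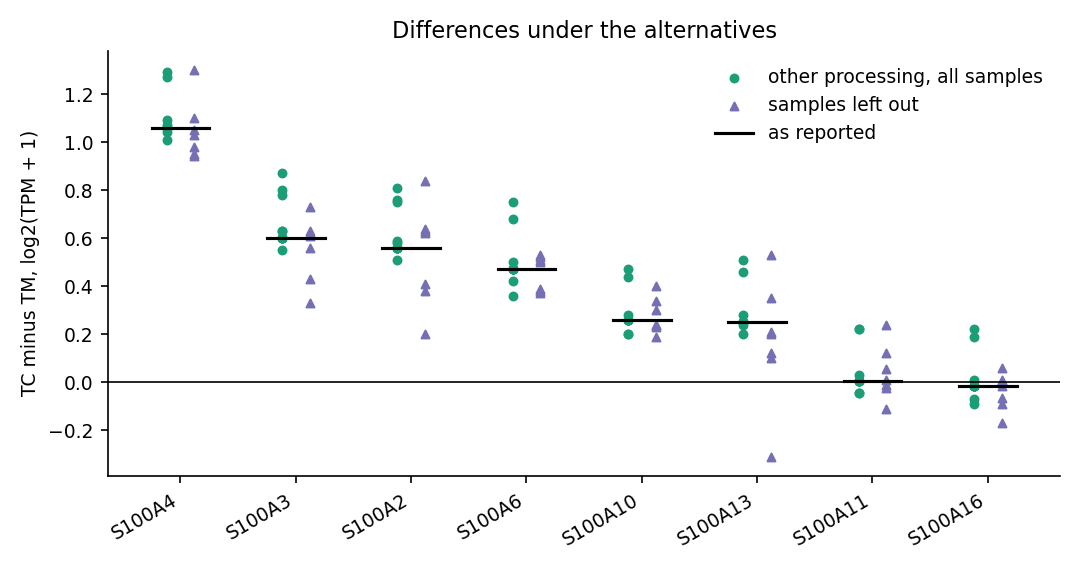
TC minus TM difference (vertical, log2(TPM + 1) scale) of each tested member (horizontal) under 19 other settings, with a circle for each change of scaling, filter or model, a triangle for each fit with samples left out and a bar at the value reported above. S100A4 stays between 0.94 and 1.30 in all of them, while S100A11 runs from -0.11 to 0.24, S100A16 from -0.17 to 0.22 and S100A13 from -0.31 to 0.53.

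Across the 19 other settings, S100A4 was higher in TC each time, with adjusted p-values of 0.0661 to 0.299 in limma and an unadjusted p under 0.05 in all 19. S100A3 had an unadjusted p under 0.05 in 17 of them and S100A6 in 16. S100A2 reached it in 4, S100A10 in 3 and S100A13 in 1.

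The genes most like the S100 members over the 6 samples were ranked by Pearson correlation of log2(TPM + 1) with the mean of the members' standardized values. The first was ARHGAP30, with r = 0.9742 over 6 samples. RTF2, a replication fork protein, followed at 0.9697, then the complex I assembly factor NDUFAF3 at 0.9665, C19orf33 at 0.9653 and UPRT at 0.9602. C19orf33 was 527, 651 and 522 TPM in TC and 443, 423 and 459 TPM in TM, with TC2 the highest sample as for S100A6. The points are 6 samples in 2 groups, and these genes were picked as the best of the tested genes outside the members, so the coefficients describe likeness only. All 9 members weighed equally in the mean, the near-absent S100A14 among them. The tested members did not all move together. Their own r over 6 samples ran from -0.758 (S100A11 with S100A13) to 0.899 (S100A4 with S100A6).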

How the data were processed

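Per the labels and methods, RNA was sequenced from TruSeq RNA libraries of 3 TC and 3 TM samples, and reads were handled by the authors with HISAT2, StringTie and RSEM against hg38. The methods name an orientation mode for the alignment, while versions, annotation release and the strand setting of the counting are not given in the sources used here. The deposited matrix holds TPM, that is estimated reads per transcript length scaled by the authors to 1 total per sample (column sums 994381 to 1000000), so no count model was run and precision per value is unknown. The 259 loci outside the annotation were left out, except in 1 alternative.

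Here log2(TPM + 1) of the 13861 genes that reached 1 TPM in 3 or more samples was fitted with limma 3.58.1 (R 4.3.3; TC minus TM, no covariate, mean-variance trend, two-sided), with Benjamini-Hochberg adjustment and a threshold of 0.05. A fold change on this scale understates low genes. On simulated data for TC minus TM (13861 genes), 81.5% of 200 genes changed by 2 on the log2 scale were called, but 10.5% of those changed by 1. Unchanged genes made up 3.55% of the 169 calls at 2 and 16% of the 25 calls at 1. The simulated noise was normal and independent, with the same SD in TC and TM for a gene, which the measured values need not have. Positions came from GENCODE release 29, which held 96.3% of the annotated genes. The members and the gene lists were chosen with earlier results of these data known. The text names all members, other S100 genes that reached 1 TPM in a sample, 6 chosen partner genes, the 3 further partners and 3 EF-hand genes with the smallest p, and the 5 genes most like the members. Alternatives changed the pseudocount, filter, scaling, model, block and samples.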

Additional observations from a re-analysis of the deposited data

How the results depend on the processing

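No member passed an adjusted p of 0.05 under any of the 19 alternatives. Members with an unadjusted p under 0.05 (3 as reported) numbered 5 after median-of-ratios rescaling and after removal of a length and GC trend, 2 (without TC2) to 4 (without TM3) with 1 sample left out, and 1 without TM1 and TM2 together, a setting chosen after seeing the data. The members' median difference of 0.36 became 0.58 after median-of-ratios rescaling and 0.63 after length and GC removal. With 1 sample left out it was 0.21 (without TC2) to 0.53 (without TM3). With no filter it was 0.26, where the near-absent S100A14 (-0.039) joined the 8 tested members, whose own differences did not move. The log2 ratio of the members' summed TPM, 0.37, became 0.58 after median-of-ratios rescaling and 0.62 after length and GC removal. It ran from 0.30 to 0.42 with 1 sample left out. The all-gene median of -0.14 was 0.049 after median-of-ratios rescaling, 0.014 after quantile normalization and 0.023 after length and GC removal. The share of all tested genes with an unadjusted p under 0.05 is not given for each setting. Changes in the counts of members, and of the listed genes below, therefore cannot be read as particular to them.

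Calls among all genes, 19 as reported, were 7 with a pseudocount of 0.1, 1 with no filter, 4 after quantile normalization, 6 after median-of-ratios rescaling, 8 without mitochondrially encoded and ribosomal protein genes, 12 without a trend, 47 with robust empirical Bayes, 4 after length and GC removal, 1 (without TC3 or without TM1) to 17 with 1 sample left out, with 4 without TC1 and 9 without TM2, and 195 without TM1 and TM2. Other S100 genes with an unadjusted p under 0.05 (0 as reported) were 1 with no filter, 1 after quantile normalization, 1 after length and GC removal, 1 without TM1 and TM2, and 0 to 1 (without TM1) with 1 sample left out. Partner genes (2 as reported) were 0 at a mean of at least 5 TPM and after quantile normalization, 1 after median-of-ratios rescaling, without a trend and with robust empirical Bayes, and 0 (without TC2) to 4 (without TM3) with 1 sample left out, with 1 without TC3 or TM1. EF-hand genes (1 as reported) were 0 at a mean of at least 5 TPM, without mitochondrially encoded and ribosomal protein genes, without a trend and with robust empirical Bayes, 2 without mitochondrially encoded genes, 5 after length and GC removal, 6 after quantile normalization, 8 after median-of-ratios rescaling, 3 without TM1 and TM2, and 0 (without TC1) to 3 (without TM3) with 1 sample left out, with 2 without TC2.

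No difference that turned sign had passed the threshold. After quantile normalization S100A11 was -0.046 and ANXA2 -0.072. S100A11 was -0.046 without mitochondrially encoded genes. After median-of-ratios rescaling S100A16 was 0.19 and AHNAK 0.042. S100A16 was 0.0077 without mitochondrially encoded and ribosomal protein genes. After length and GC removal S100A16 was 0.22, AHNAK 0.11, MYH9 0.0068 and SDF4 0.030. Without TM1 and TM2, S100A13 was -0.31, ANXA1 -0.26 and the tropomyosin gene TPM1 0.17. With 1 sample left out, S100A11 ran from -0.11 to 0.12, S100A16 from -0.093 to 0.058, S100A1 from -0.031 to 0.71, ANXA1 from -0.11 to 0.21 and AHNAK from -0.33 to 0.060.
The cause of these changes was not tested. TPM keeps no depth, so none could be set against it.

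Whether same-numbered TC and TM samples came from the same tumor was not established: the labels do not say so, and their deviations correlated at 0.211, -0.121 and -0.165, which is too weak to settle it. With the replicate number as a block, 1 gene of all was called, 1 partner gene and 0 EF-hand genes had an unadjusted p under 0.05, and the limma adjusted p was 0.223 for S100A4, 0.271 for S100A3 and 0.350 for S100A6.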
